A study of Mus musculus with 6 samples.

Results

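The interferon-inducible GTPases are GTP-binding proteins that cells make in large amounts in response to interferons. The 10 genes described here were listed by name, namely 5 guanylate-binding proteins (GBPs), *Gbp2*, *Gbp3*, *Gbp5*, *Gbp6* and *Gbp7*, and 5 immunity-related GTPases (IRGs), *Igtp*, *Irgm1*, *Irgm2*, *Iigp1* and *Ifi47*, and each was found once among the 54532 gene identifiers of the count tables. RNA was measured in cDC1, a dendritic cell (DC) type that cross-presents antigen to CD8 T cells. The cells were grown from mouse bone marrow for 8 days with 80 ng/mL of the cytokine FLT3L and sorted for CD24 and CD11c and against B220, CD115 and CD172a. Of the 6 libraries, 3 were from mice with floxed *c-Jun/JunB* alleles and no Cre (fl/fl) and 3 from mice in which the same alleles were combined with the *Itgax*-Cre transgene (Δ/Δ), and values are always listed in the order of library 1, 2 and 3. The Cre is driven by the promoter of *Itgax*, the CD11c gene, so that only cells in which this promoter has been active can delete. Because the fl/fl group carries no Cre, effects of the Cre protein and of the deletion cannot be told apart. No interferon or microbial stimulus was named for these cultures.

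GBPs and IRGs are part of cell-autonomous immunity. Effector IRGs (*Iigp1*, *Ifi47*, *Tgtp1* and *Tgtp2*) collect on the membrane of vacuoles that hold pathogens such as Toxoplasma and help to break it, regulatory IRGs (*Irgm1*, *Irgm2* and *Igtp*) keep the effectors off the membranes of the cell itself, and GBPs gather on damaged vacuoles and on cytosolic bacteria and promote inflammasome activation. Both families are switched on by IFN-γ through gamma-activated sites (GAS) and by type I interferons through interferon-stimulated response elements (ISRE), which IRF1 and IRF8 also bind.

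The libraries held 21693217 to 26788296 reads on genes. Levels are given as CPM, the reads of a gene per 1000000 reads on all genes, scaled with TMM factors of 0.989 to 1.01. *Jun* ranged from 52.5 to 70.9 CPM in fl/fl and from 44.3 to 60.5 CPM in Δ/Δ libraries, and *Junb* from 274 to 413 and from 110.4 to 212 CPM (adjusted p = 0.345 and 0.0729). As the deleted part of either gene was not stated, these reads do not measure the deletion. The paper reported from quantitative RT-PCR that both genes were deleted in cDC1 and cDC2 sorted from Δ/Δ mice. It also measured both genes by this method in cDC1 from FLT3L cultures. All 15 cDC1 marker genes were detected, and their sum was 18237 to 18435 CPM without Cre and 16385 to 18596 CPM with it. Most of the sum came from *H2-Ab1*, *Wdfy4* and *Irf8* (fl/fl means of 7135, 3692 and 2712 CPM). It therefore says little about the other markers. At an adjusted p under 0.05, 4 of the 15 (*Xcr1*, *Tlr3*, *Snx22* and *Itgax*) fell, beside 1.85% of all tested genes, and none rose. These 4, *Cd24a* and *Wdfy4* were lower in every Δ/Δ than in every fl/fl library, as were 12.3% of all genes. *Cadm1* was higher in every Δ/Δ library, as were 13.7%. *Itgax* and *Cd24a* encode CD11c and CD24, which the cells were sorted for. By genes far above the rest of their genotype, Δ/Δ 2 stood apart. There 147 tested genes (1.14%) were at least 4-fold above both other Δ/Δ libraries, *Gbp2*, *Gbp3*, *Gbp5* and *Gbp7* among them. Each of the other 5 libraries had 1 to 9 such genes within its own genotype. In Δ/Δ 1 a further 69 genes (0.535%) were at least 4-fold below both others. The chi-square per degree of freedom of read counts did not single out Δ/Δ 2. It was 42.0 between Δ/Δ 1 and 2, 32.2 between 1 and 3 and 30.3 between 2 and 3. Because of the first count, results on the tested members are given with and without Δ/Δ 2.

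The DNA before the start sites is shown because interferon-activated factors and AP-1 act through short elements there. RefSeq promoter windows of 300 bases (250 before to 50 after the start, GRCm38.p6) were matched for 8 of the 10 members, all but *Gbp6* and *Iigp1*, with 9 windows. The ISRE core, searched on both strands as GAAA followed by any 2 bases and a further GAAA, was found in 7 of these 8 members, against 3.44% of all 32851 windows. The GAS motif TTCNNNGAA was in 4 members (*Gbp5*, *Gbp7*, *Igtp* and *Irgm2*), against 8.3% of windows. The AP-1 site TGANTCA, the kind of sequence that c-Jun and JunB bind, was in *Gbp2* and *Irgm1*, against 7.81% of windows. A match describes letters and not binding. Below, motif matches are in capitals in the last 120 bases before the start of the 4 IRG members on chromosome 11, of *Tgtp2*, an effector IRG gene that is no member, and of 2 GBPs.
*Igtp* (chr11:58199436-58199555, plus strand): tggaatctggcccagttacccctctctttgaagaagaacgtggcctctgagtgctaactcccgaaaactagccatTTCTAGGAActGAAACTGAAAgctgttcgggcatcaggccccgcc
*Irgm2* (chr11:58214857-58214976, plus strand): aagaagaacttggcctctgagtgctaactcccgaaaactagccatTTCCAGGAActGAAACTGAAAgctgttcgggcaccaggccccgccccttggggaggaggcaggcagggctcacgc
*Tgtp2* (chr11:49064213-49064332, minus strand): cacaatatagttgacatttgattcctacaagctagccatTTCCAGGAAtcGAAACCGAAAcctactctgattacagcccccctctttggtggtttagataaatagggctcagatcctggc
*Ifi47* (chr11:49076467-49076586, plus strand): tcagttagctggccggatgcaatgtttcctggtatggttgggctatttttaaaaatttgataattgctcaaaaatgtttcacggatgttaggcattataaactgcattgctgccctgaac
*Irgm1* (chr11:48871421-48871540, minus strand): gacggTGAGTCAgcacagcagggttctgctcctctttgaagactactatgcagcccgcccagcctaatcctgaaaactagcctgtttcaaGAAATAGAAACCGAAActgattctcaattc
*Gbp2* (chr3:142620543-142620662, plus strand): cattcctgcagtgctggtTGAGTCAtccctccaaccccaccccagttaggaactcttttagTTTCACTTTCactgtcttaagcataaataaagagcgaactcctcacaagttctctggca
*Gbp7* (chr3:142530216-142530335, plus strand): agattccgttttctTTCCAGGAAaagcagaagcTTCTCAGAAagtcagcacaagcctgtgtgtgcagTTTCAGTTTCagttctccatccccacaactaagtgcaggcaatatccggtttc
In *Igtp*, *Irgm2* and *Tgtp2*, a GAS match starts 11 bases before the ISRE core, at positions −45, −75 and −81 from the start. *Ifi47* has no match to any of the 3 motifs in its window. *Irgm1* has 2 overlapping ISRE cores, of which the upstream one starts at −30, and the AP-1 letters TGAGTCA at −115. *Gbp2* has the same AP-1 letters at −102 and an ISRE core on the other strand at −59. *Gbp7* has 2 GAS matches, the upstream one at −106, and an ISRE core on the other strand at −53. GENCODE models of *Gbp2*, *Irgm1* and *Irgm2* begin upstream of these RefSeq starts.

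Of the 10 members, 8 had enough reads for the genotype test, which was edgeR's quasi-likelihood test adjusted by Benjamini-Hochberg over 12894 genes. *Igtp*, *Irgm2* and *Ifi47* passed at an adjusted p under 0.05, all lower in Δ/Δ. These 3 stand beside 3.88% of all tested genes that passed in either direction and 1.85% that passed as lower. None of the 8 members passed as higher by edgeR or limma-voom, beside 2.03% of all genes by edgeR, and none had an unadjusted p under 0.05 as higher. DESeq2 called none as higher either, but gave no adjusted p for *Gbp3* and *Gbp7*. With an absolute log2 fold change of at least 1 as a further limit, *Igtp* and *Ifi47* were left, where 1.86% of all genes passed, 0.869% as lower. Every Δ/Δ library was below every fl/fl library for the same 3 members, as for 12.3% of all genes, and above for none, as for 13.7%. The log2 fold changes of the 8 members had a median of −0.50, beside 0.0018 over all tested genes. In bulk RNA, fewer cells of a kind and less RNA per cell cannot be told apart.

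The 3 IRG genes that fell lie on chromosome 11, as does *Irgm1*, the only other IRG member tested. *Igtp* (ENSMUSG00000078853.8, chromosome 11, 58199556 to 58207591), which encodes the regulatory IRG Irgm3, measured 14.9, 14.98 and 14.6 CPM in the fl/fl libraries and 7.55, 6.49 and 5.68 CPM in the Δ/Δ libraries. The fl/fl libraries were nearly equal, and the highest Δ/Δ library was far below the lowest of them. The mean fell from 14.8 ± 0.209 to 6.57 ± 0.935 CPM (SD, n = 3 each), a 2.26-fold difference (log2 fold change −1.17, SE 0.14, adjusted p = 0.00766). Without Δ/Δ 2 the log2 fold change was −1.16 (adjusted p = 0.0147). The call was lost without fl/fl 1 or without fl/fl 2 (adjusted p = 0.0567 and 0.0607), while the log2 fold change was −1.17 in either case.

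*Ifi47* (ENSMUSG00000078920.3, chromosome 11, 49076587 to 49096974), which encodes the effector IRG Irgd, had the largest decrease among the members that passed. Its level was 13.9, 14.2 and 10.8 CPM in the fl/fl libraries and 4.38, 2.99 and 5.55 CPM in the Δ/Δ libraries. The lowest fl/fl library was above the highest Δ/Δ library. The mean went from 13.0 ± 1.87 to 4.31 ± 1.28 CPM (SD, n = 3 each), a 3.01-fold difference (log2 fold change −1.59, SE 0.24, adjusted p = 0.0183), and without Δ/Δ 2 the log2 fold change was −1.39 (adjusted p = 0.0155). Here too the call was lost without fl/fl 1 (0.107) or fl/fl 2 (0.103), with log2 fold changes of −1.54 and −1.53.

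*Irgm2* (ENSMUSG00000069874.7, chromosome 11, 58199618 to 58222782), a further regulatory IRG gene, stood at 23.99, 20.99 and 18.2 CPM in the fl/fl libraries and at 12.6, 11.99 and 14.1 CPM in the Δ/Δ libraries. The genotypes did not overlap. The means of 21.04 ± 2.92 and 12.9 ± 1.06 CPM differed 1.63-fold (log2 fold change −0.71, SE 0.13, adjusted p = 0.0358). With 1 library left out, this call held only without Δ/Δ 1 (adjusted p = 0.0367), and the adjusted p was 0.158, 0.161 and 0.0533 when fl/fl 1, 2 or 3 was left out and 0.0606 and 0.0580 when Δ/Δ 2 or 3 was. Without Δ/Δ 2 the log2 fold change was −0.66. *Igtp* and *Irgm2* share 162 exon bases on the same strand, 8.01% of *Igtp* and 4.39% of *Irgm2*, in which a read cannot be assigned to either gene. Over all genes the share that passed moved as well, to 0.719%, 0.716% and 1.51% without fl/fl 1, 2 and 3, to 9.96%, 5.43% and 2.65% without Δ/Δ 1, 2 and 3, to 8.56% with DESeq2 and to 4.08% with limma-voom.

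*Irgm1* (ENSMUSG00000046879.7, chromosome 11, 48861968 to 48871683), a regulatory IRG that is also tied to autophagy, did not pass. It was found at 115, 102 and 87.6 CPM in the fl/fl libraries and at 82.3, 69.8 and 97.2 CPM in the Δ/Δ libraries. The ranges overlapped, with Δ/Δ 3 above fl/fl 3. The estimate (log2 fold change −0.29, SE 0.14, adjusted p = 0.321) lay between −0.42 and −0.18 with 1 library left out, the latter without Δ/Δ 2 (adjusted p = 0.502).

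**Figure D1:**
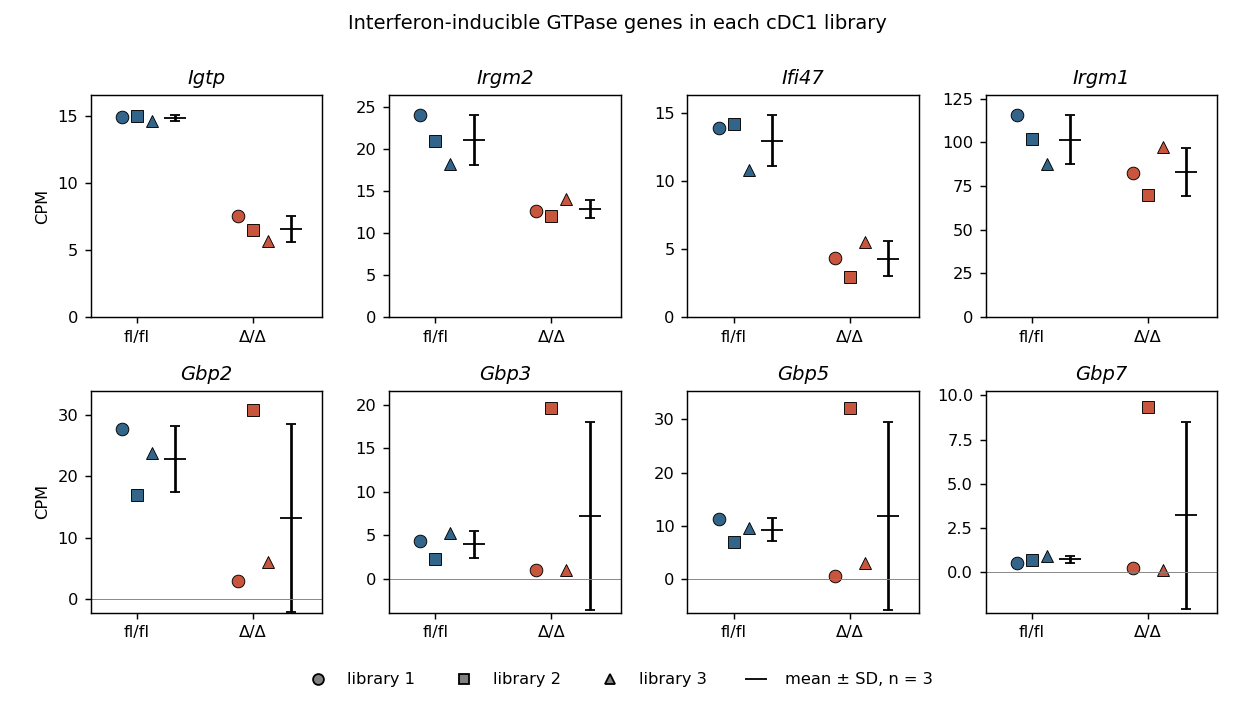
Level of each tested member in CPM (linear axes of different range) in the 3 fl/fl libraries (blue) and the 3 Δ/Δ libraries (red), with the symbol giving the library number and the black bar the mean with its SD over 3 libraries. *Igtp*, *Irgm2* and *Ifi47* show no overlap between the genotypes, *Irgm1* overlaps, and in the 4 GBP panels Δ/Δ 2 lies above every other library while Δ/Δ 1 and 3 lie below the fl/fl libraries.

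Summed, *Igtp*, *Irgm2* and *Ifi47* gave 52.8, 50.1 and 43.6 CPM in the fl/fl libraries and 24.5, 21.5 and 25.3 CPM in the Δ/Δ libraries. The summed markers of some other cell types were higher in every Δ/Δ than in every fl/fl library, and every gene of these 3 lists had at least 1 read in some library. The 10 cDC2 markers summed to 225 to 371 CPM over the fl/fl libraries and 520.0 to 754 CPM over the Δ/Δ libraries, and *Klf4*, *Cd4* and *Cd209a* rose. Beside the markers said to rise in this paragraph stand 2.03% of all tested genes that passed as higher. *Cd209a* alone went from a mean of 49.2 CPM in fl/fl to 234 CPM in Δ/Δ. Of the 10, 8 had a positive log2 fold change and 2 a negative one, *Sirpa* at −0.21 and *Esam* at −0.16 (adjusted p = 0.430 and 0.945). *Sirpa* encodes CD172a, which the cells were sorted against. The 9 monocyte and macrophage markers had 2450 to 2871 and 3466 to 4312 CPM, of which *Adgre1* and *Ccr2* rose. *Lyz2* and *Ccr2* made up most of this sum, and the other 7 summed to 30.7 to 41.0 and 47.7 to 68.5 CPM. The 8 pDC markers had 1169 to 1238 and 1350 to 1554 CPM, mostly from *Ptprc*, the gene of the general leukocyte protein CD45, and the other 7 summed to 225 to 243 and 245 to 295 CPM. Of the pDC markers *Ccr9* rose, and *Klk1* had 1 read in all. *Siglech* was higher in every Δ/Δ library (16.5 to 37.5 CPM, against 7.79 to 10.8 CPM in fl/fl, adjusted p = 0.0571), as were 13.7% of all genes. *Bst2* was lower in every Δ/Δ library (70.5 to 79.0 CPM, against 89.1 to 109 CPM in fl/fl, adjusted p = 0.0572), as were 12.3% of all genes. Of the 10 T and NK cell markers, summing to 0.852 to 1.31 CPM over all libraries, *Prf1* and *Ifng* had 0 reads. Of the 6 neutrophil markers, at 0.852 to 12.4 CPM, *Elane* and *Ly6g* had 0 reads. The paper reported raised *Klf4* transcripts and raised surface CD4 and CD11b on gated Δ/Δ cDC1. Whether other cells or changed cDC1 had a part in the lower IRG levels was not tested.

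The GBP members on chromosome 3 spread widely among the Δ/Δ libraries, and none passed. *Gbp2* (ENSMUSG00000028270.12, chromosome 3, 142620602 to 142638008), a lipid-anchored GBP that coats pathogen vacuoles, reached 27.7, 16.98 and 23.9 CPM in the fl/fl libraries and 2.92, 30.9 and 6.08 CPM in the Δ/Δ libraries. Δ/Δ 2 was the highest of the 6 libraries, and Δ/Δ 1 and 3 were the lowest. Over all libraries, with means of 22.9 ± 5.43 and 13.3 ± 15.3 CPM, the difference was within the spread (log2 fold change −0.79, SE 0.76, adjusted p = 0.611). Without Δ/Δ 2 the log2 fold change was −2.35 (SE 0.35, adjusted p = 0.0188), and of all alternatives, with adjusted p between 0.0188 and 0.852, *Gbp2* passed only in this one. Without Δ/Δ 1 the log2 fold change was −0.31 (adjusted p = 0.780).

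*Gbp5* (ENSMUSG00000105504.4, chromosome 3, 142493978 to 142522344), a lipid-anchored GBP linked to the NLRP3 inflammasome, was at 11.2, 6.90 and 9.59 CPM in the fl/fl libraries and at 0.487, 32.2 and 2.91 CPM in the Δ/Δ libraries. *Gbp3* (ENSMUSG00000028268.14, chromosome 3, 142560026 to 142573209) was likewise highest in Δ/Δ 2, with 1.01, 19.6 and 0.969 CPM, against 4.36, 2.22 and 5.30 CPM in fl/fl. *Gbp7* (ENSMUSG00000040253.15, chromosome 3, 142530342 to 142550149), linked to assembly of the phagocyte oxidase, was low, with 0.203, 9.33 and 0.0881 CPM in Δ/Δ and 0.540, 0.667 and 0.933 CPM in fl/fl libraries. In all 3 genes, as in *Gbp2*, Δ/Δ 2 was above every fl/fl library and Δ/Δ 1 and 3 were below every fl/fl library. The share of all genes with this pattern was not computed. The level in Δ/Δ 2 was 6.86 times the mean of Δ/Δ 1 and 3 for *Gbp2*, 19.0 times for *Gbp5*, 19.8 times for *Gbp3* and 64.1 times for *Gbp7*, the last from 200 reads against 5 and 2.

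The direction for *Gbp3*, *Gbp5* and *Gbp7* rested on Δ/Δ 2. With all libraries, their log2 fold changes were 0.86, 0.36 and 2.16, with SE 1.099, 1.13 and 1.43 (adjusted p = 0.714, 0.896 and 0.453). Without Δ/Δ 2 they were −1.99, −2.46 and −2.23 (adjusted p = 0.0509, 0.0786 and 0.0949). Of 13247 genes tested without Δ/Δ 2, 2.76% passed as lower, and of the members *Gbp2*, *Igtp* and *Ifi47* did. The median log2 fold change of the 8 members was then −1.69, and that of all tested genes −0.0019. Of the exon bases of *Gbp7*, 11.3% are shared with the overlapping gene *Gm43802*.

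**Figure D2:**
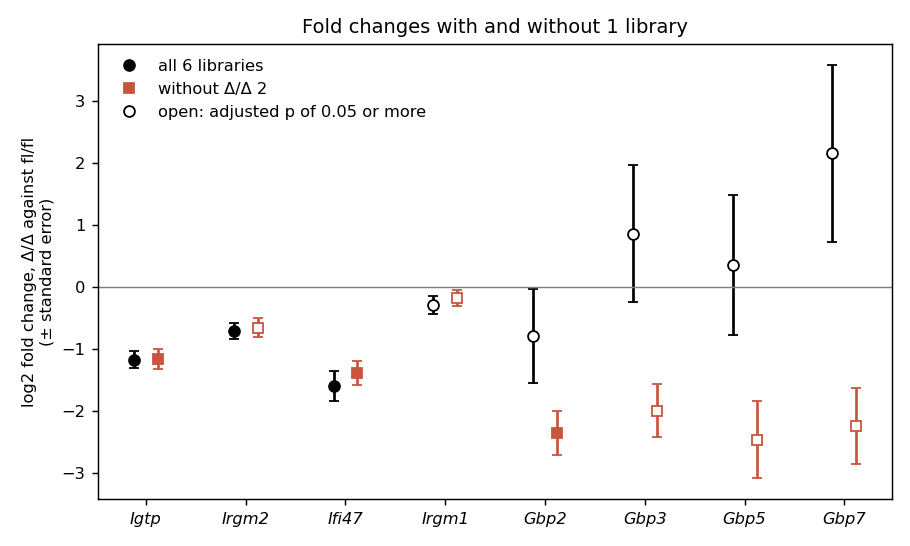
Log2 fold change (Δ/Δ against fl/fl, edgeR) with its standard error for the 8 tested members, from all 6 libraries (circles) and without Δ/Δ 2 (squares), filled where the adjusted p was under 0.05. The IRG values differ little between the fits, whereas *Gbp3*, *Gbp5* and *Gbp7* lie above 0 with all libraries and between −2.46 and −1.99 without Δ/Δ 2.

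The 4 GBP genes summed to 43.8, 26.8 and 39.7 CPM in the fl/fl libraries and to 4.63, 92.1 and 10.04 CPM in the Δ/Δ libraries. The summed markers of mature DCs, a state of activated DCs with high CCR7, had the order of the GBP sum among the Δ/Δ libraries. The same order held for the summed cDC1, neutrophil, T and NK cell and B cell markers, so it is not particular to mature DCs. The sum of 10 mature DC markers, none at 0, was 1371, 1036 and 1226 CPM in the fl/fl libraries and 548, 2296 and 739 CPM in the Δ/Δ libraries. Not all 10 followed the sum. In Δ/Δ 1 and 3, 7 of them were below every fl/fl library, for which no share over all genes was computed. In every Δ/Δ library 1 was above every fl/fl library, as for 13.7% of all genes. *Ccr7*, the receptor that guides DCs to lymph nodes, ranged from 151 to 221 CPM in fl/fl and reached 26.9, 376 and 60.8 CPM in Δ/Δ libraries, and *Fscn1*, which bundles actin in mature DCs, ranged from 183 to 293 CPM and reached 31.8, 655 and 92.7 CPM. With all libraries none of the 10 markers passed by edgeR or limma-voom and 1 (*Cd80*, raised) by DESeq2, as also at an unadjusted p under 0.05 by edgeR, and without Δ/Δ 2 *Ccr7*, *Il12b*, *Ccl22* and *Socs2* were lower (adjusted p = 0.0290, 0.0380, 0.00835 and 0.0198). The 5 B cell markers, also all detected, summed to 18.7 to 30.0 CPM in the fl/fl libraries and to 12.7, 49.3 and 24.1 CPM in the Δ/Δ libraries. The part of these cells or states in the GBP levels was not tested.

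**Figure D3:**
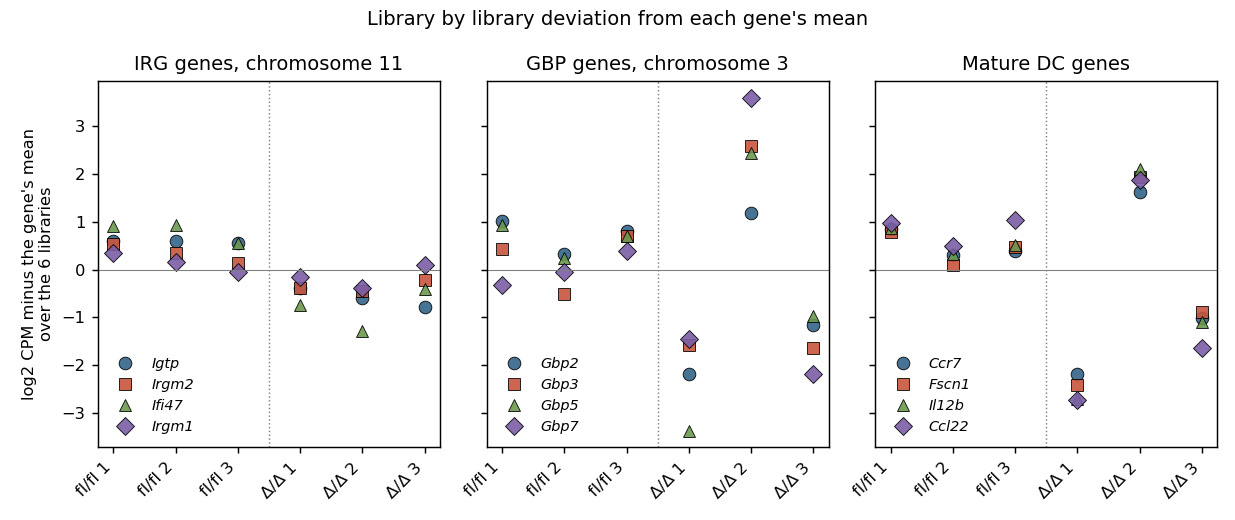
Deviation of each gene's log2 CPM (prior count of 2) from its mean over the 6 libraries, for 4 IRG members, 4 GBP members and 4 mature DC markers, with the dotted line between the genotypes. The mature DC genes shown are 4 of the 10 markers and were chosen after their values were seen. The IRG genes stay within −1.28 and 0.94, while the GBP genes run from −3.37 in Δ/Δ 1 to 3.60 in Δ/Δ 2 and the mature DC genes from −2.74 to 2.10 in the same libraries.

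Members were compared by the root mean square difference, over the 6 libraries, of their log2 CPM centred on each gene's mean. It was 0.61 to 1.26 between GBP genes, 0.22 to 0.67 between the 4 IRG genes and 1.07 to 2.24 between a GBP and an IRG gene. The 5 genes outside the GTPases with the profile most like the mean of the tested members were *Cd200* (0.0633), *Traf1* (0.101), *Chst11* (0.123), *Fabp5* (0.126) and *Cx3cl1* (0.128). *Cd200*, a surface glycoprotein gene, stood at 18.6, 14.5 and 16.2 CPM in fl/fl and at 4.67, 24.2 and 6.48 CPM in Δ/Δ libraries. For the GBP members alone, a grouping chosen after their values were seen, *Ramp3* (0.215) and *Dlgap3* (0.241) came closest, and *Fscn1* and *Il12b* were among the closest 5. For *Igtp*, *Irgm2* and *Ifi47*, also grouped after their values were seen, the closest 5 were *Gm10524*, *Ndufs5*, *Rnf213*, *Zcchc24* and *Naip2* (0.0816 to 0.132). All these distances come from the same 6 libraries.

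The remaining members were near 0 and were not tested. *Gbp6* (ENSMUSG00000104713.4, chromosome 5, 105270702 to 105293698) had 3 reads in fl/fl 1 and 0 in the other 5 libraries. Of its subsequences of 75 bases, 67.3% also occur in other genes, so uniquely mapped reads can miss it. *Iigp1* (ENSMUSG00000054072.11, chromosome 18, 60376027 to 60392634), the gene of the effector IRG Irga6, had 18 reads in fl/fl 1, 6 reads in Δ/Δ 2 and 0 in the other 4 libraries. A count of 0 over the 3 libraries of a genotype allows a level of up to 0.0392 CPM for fl/fl and 0.0436 CPM for Δ/Δ, counting error alone considered (3 reads pooled).

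Per kb of exon, *Irgm1* was the most abundant member in fl/fl libraries, with 17.5 ± 2.39 CPM per kb. *Gbp2* (9.08 ± 2.16 CPM per kb) and *Igtp* (7.34 ± 0.104) followed with overlapping ranges, and so did *Irgm2* (5.70 ± 0.790) and *Ifi47* (5.24 ± 0.755) below them. *Gbp5* (1.39 ± 0.329) and *Gbp3* (1.21 ± 0.483) overlapped as well, and *Gbp7* was at 0.127 ± 0.0357 CPM per kb. *Iigp1* and *Gbp6* had means of 0.0397 and 0.00648 CPM per kb. In Δ/Δ libraries *Irgm1* had 14.3 ± 2.35 and *Ifi47* 1.74 ± 0.519 CPM per kb, and *Ifi47* moved from the fifth to the seventh place, below *Gbp3* (2.21 ± 3.30) and *Gbp5* (1.79 ± 2.66). That place rested on Δ/Δ 2, since over Δ/Δ 1 and 3 *Ifi47* averaged 2.01 CPM per kb and took the fourth place, above *Gbp2* (1.79), *Gbp3* (0.304) and *Gbp5* (0.256).

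Of 24 further interferon-inducible GTPase genes listed, 23 were found, 17 were tested and 2 fell, *Tgtp2* and *Mx1*, beside 1.85% of all tested genes. None passed as higher by edgeR or limma-voom, 2 (*Gm5431* and *Gm8995*) did by DESeq2, and 2 had an unadjusted p under 0.05 by edgeR. *Tgtp2*, which encodes the effector IRG Irgb6, went from 22.02, 18.1 and 16.97 CPM in the fl/fl libraries to 4.63, 4.53 and 6.39 CPM across the Δ/Δ libraries (log2 fold change −1.88, SE 0.18, adjusted p = 0.00417). *Mx1*, a dynamin-like antiviral GTPase, went from 165, 159.5 and 147 CPM to 83.6, 83.9 and 99.2 CPM (log2 fold change −0.82, SE 0.086, adjusted p = 0.00472). Both genes had an adjusted p under 0.05 in every other fit, the highest being 0.0376 and 0.0464, but *Mx1* did not reach the further limit of an absolute log2 fold change of 1. Lower in every Δ/Δ than in every fl/fl library were 6 of the 17 tested genes, beside 12.3% of all tested genes. They were *Tgtp2*, *Mx1*, *Gbp9*, *Gm12250*, *Gvin1* and *Mx2*. *Gm8995* was the 1 gene that was higher in every Δ/Δ library, beside 13.7% of all genes. Of the subsequences of 75 bases in *Tgtp2*, 81.4% also occur in *Tgtp1* or *Gm12185*, so the split of reads between these copies is uncertain. *Tgtp1* itself was at 0.927 to 1.19 CPM in fl/fl libraries and at 0.162, 1.63 and 0.308 CPM across the Δ/Δ libraries (log2 fold change −0.64, adjusted p = 0.690), and without Δ/Δ 2 the log2 fold change was −2.18 (adjusted p = 0.0547).

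Neighbours of *Gbp6* on chromosome 5 did not pass. *Gbp9* was at 20.7, 22.6 and 23.9 CPM in the fl/fl libraries and at 11.3, 14.7 and 20.2 CPM across the Δ/Δ libraries (log2 fold change −0.54, adjusted p = 0.210). *Gbp4* was at 5.04 to 6.45 CPM and at 1.05, 5.88 and 3.08 CPM (log2 fold change −0.75, adjusted p = 0.481), with a log2 fold change of −1.44 without Δ/Δ 2 (adjusted p = 0.1196), and the log2 fold change of *Gbp8* was 0.39 (adjusted p = 0.347). Of the IRG-like genes on chromosome 11, *Gm12250*, which encodes Irgb10, ranged from 1.48 to 2.85 CPM in fl/fl and from 0.0406 to 1.19 CPM in Δ/Δ cells (log2 fold change −1.76, adjusted p = 0.278). Log2 fold changes were 1.12 for *Gm5431*, 0.12 for *9930111J21Rik1*, 0.06 for *9930111J21Rik2* and 0.02 for *Gm12185* (adjusted p = 0.198, 0.744, 0.848 and 0.979). *Mx2*, a paralog of *Mx1*, was at −0.38 (0.152). Among the very large inducible GTPase genes on chromosome 7, *Gvin1* was at −0.86 (0.188), *Gm4070* at 0.06 (0.920), *Gm1966* at −0.23 (0.440) and *Gm8995* at 0.34 (0.0932), and 98.3% of the 75-base subsequences of *Gvin1* are shared with its relatives.

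**Figure D4:**
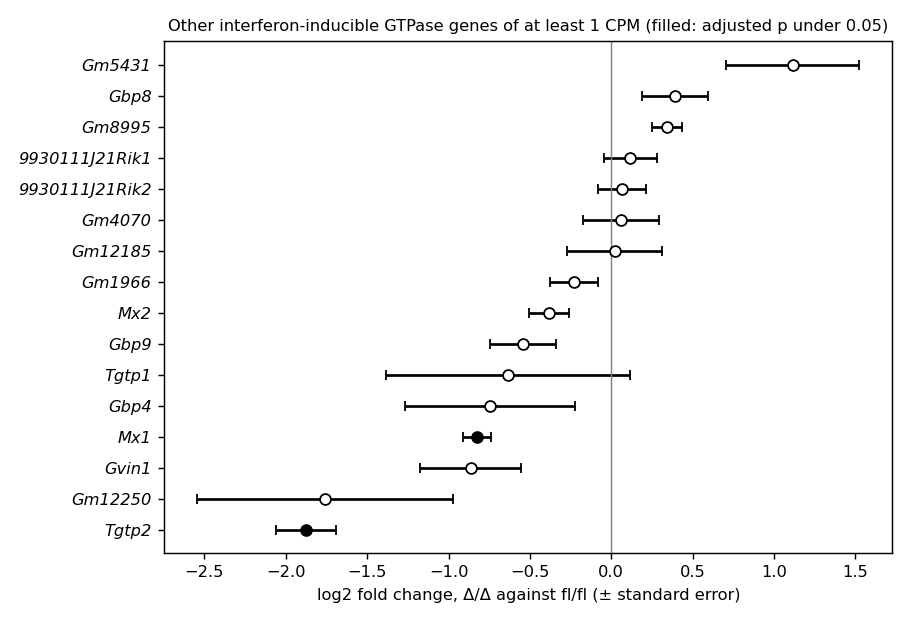
Log2 fold change (Δ/Δ against fl/fl, edgeR, all 6 libraries) with its standard error for the tested interferon-inducible GTPase genes outside the members with a mean of at least 1 CPM in either genotype, filled where the adjusted p was under 0.05. *Tgtp2* at −1.88 and *Mx1* at −0.82 are the filled points, and the other genes spread from −1.76 to 1.12.

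Of 12 GTPases that are not interferon-inducible, *Irgc1* rose in Δ/Δ, beside 2.03% of all tested genes, and the other 11 did not pass. *Irgc1* is an IRG relative known from testis. Its level was 0.231, 0.185 and 0.0848 CPM in the fl/fl libraries and 6.94, 5.65 and 1.45 CPM across the Δ/Δ libraries (log2 fold change 4.75, SE 0.71, adjusted p = 0.0168). The call was lost when fl/fl 1, 2 or 3 was left out (0.0953, 0.104 and 0.0731) and under limma-voom (0.0907). *Irgq*, the other IRG relative tested, had a log2 fold change of −0.02 (adjusted p = 0.906).

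Of the ligands that induce these genes, the 6 interferon genes listed were not seen as RNA. *Ifng*, *Ifnb1*, *Ifna2*, *Ifna4*, *Ifnl2* and *Ifnl3* had 0 reads in all 6 libraries, with the limit given above. Of the receptors, *Ifngr1* ranged from 811 to 991 CPM over the fl/fl libraries and from 724 to 1020.2 CPM over the Δ/Δ libraries (log2 fold change −0.01, SE 0.13, adjusted p = 0.987). None of the 4 receptor genes passed by edgeR, DESeq2 or limma-voom or had an unadjusted p under 0.05. *Ifngr2*, *Ifnar1* and *Ifnar2* had log2 fold changes of 0.05, 0.16 and −0.07 (adjusted p = 0.742, 0.388 and 0.765).

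Of the 20 tested genes listed as acting between these receptors and the GTPase genes, *Irf7* and *Usp18* fell and *Ciita* rose. The result for 1 of the 20 is not reported here. Of all tested genes, 1.85% passed as lower and 2.03% as higher. *Irf7*, which amplifies type I interferon responses, ranged from 77.1 to 113 CPM over the fl/fl libraries and from 24.6 to 45.3 CPM over the Δ/Δ libraries (log2 fold change −1.54, SE 0.25, adjusted p = 0.0209). *Usp18*, an inhibitor of type I interferon signalling, ranged from 34.7 to 56.3 and from 15.4 to 21.6 CPM (log2 fold change −1.34, SE 0.20, adjusted p = 0.0177). Both lost the call without fl/fl 1 (0.110 and 0.0939) and without fl/fl 2 (0.105 and 0.103). *Ciita*, the regulator of MHC class II genes, rose (log2 fold change 0.46, SE 0.07, adjusted p = 0.0159), a call lost when fl/fl 1, 2 or 3 was left out (0.110, 0.107 and 0.0581).

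*Irf1* and *Irf8*, factors that bind the ISRE, did not pass. *Irf1* was at 131, 106 and 125 CPM in the fl/fl libraries and at 93.5, 187 and 118 CPM in the Δ/Δ libraries, where Δ/Δ 2 was again highest (log2 fold change 0.14, adjusted p = 0.797). *Irf8* ranged from 2653 to 2773 CPM over the fl/fl libraries and from 2729 to 2879 CPM over the Δ/Δ libraries (log2 fold change 0.04, adjusted p = 0.687).

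Of 3 further lists of genes around the GTPases, 1 of 21, 2 of 17 and 0 of 9 tested genes passed, beside 3.88% of all tested genes. Among 25 other IFN-γ-responsive genes, of which 21 were tested, *Parp14*, an ADP-ribosyltransferase, fell, ranging from 140.1 to 169 CPM over the fl/fl libraries and from 97.8 to 113 CPM over the Δ/Δ libraries (log2 fold change −0.57, SE 0.09, adjusted p = 0.0188). Among 18 genes that guide the GTPases to vacuoles or act in autophagy, with 17 tested, *Rnf213*, a very large ubiquitin ligase, fell, with 596 to 766 and 292 to 406 CPM (log2 fold change −0.99, SE 0.14, adjusted p = 0.0139). *Trim21*, a cytosolic antibody receptor and ubiquitin ligase, fell as well, with 43.8 to 45.4 and 30.7 to 35.5 CPM (log2 fold change −0.40, SE 0.08, adjusted p = 0.0394). None of these 3 calls held without fl/fl 1 (0.113, 0.0843 and 0.180) or without fl/fl 2 (0.103, 0.0770 and 0.163), and *Trim21* was also lost when fl/fl 3, Δ/Δ 2 or Δ/Δ 3 was left out (0.127, 0.0561 and 0.0771). Of 9 genes of the GBP-dependent inflammasome route, such as *Casp1* and *Aim2*, none passed by edgeR, DESeq2 or limma-voom, while 3 (*Casp1*, *Il18* and *Pycard*) had an unadjusted p under 0.05 by edgeR.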

How the data were processed

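Per the study's methods, the authors aligned paired reads of directional poly(A) libraries with STAR 2.6.1a in 2-pass mode to the mouse genome mm10 (GRCm38) with Gencode vM19, and the deposited values are raw counts of uniquely mapped reads per gene and library. The sources used here do not give the strand setting of the counting, and reads of overlapping or antisense genes may not be separable. The submitters' processing notes also list bcl2fastq 2.19.1.403, RSEM and DESeq2 1.20.0. Reads outside genes, 20.3% to 20.9% of each library, were kept out of library sizes and tests. Names and coordinates came from GENCODE M21 (GRCm38), which named all but 37 of the 54532 identifiers.

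From the counts as deposited, genotypes were compared with edgeR 4.0.16 (TMM, filterByExpr with a minimum count of 10 and total of 15, quasi-likelihood test, genotype as the only term) in R 4.3.3, and a call was an adjusted p under 0.05. DESeq2 1.42.0, limma 3.58.1, DESeq2 size factors, other filters, a replicate block and leaving out each library were alternatives. Tables were made with Python 3.11.15, numpy 2.4.6, pandas 2.3.3 and figures with matplotlib 3.10.9. The labels do not say whether libraries of a genotype came from separate mice or cultures. The paper's legend for a plot of these RNA-Seq samples describes its dots as individual mice. The p-values measure only the spread between these libraries. Replicates differed beyond sampling noise (chi-square per degree of freedom 6.76 to 42.0). The same-number correlations of deviations from the group means were 0.091, −0.148 and 0.200, so the numbers were not taken to pair libraries.

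The members and gene lists were chosen with earlier results of these data known. Named are all members, the other GTPase genes with a mean of at least 1 CPM in either genotype, and of each further pathway list the genes that passed, with *Irf1*, *Irf8* and the interferon receptor and *Ifng* genes whatever their test, the deleted genes, and the 5 genes outside both GTPase lists with the most similar centred profile. Other genes named beside these were chosen after their values were seen. Marker lists are summed. Protein sequences were not used here, and the result for 1 upstream gene is not reported here.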

Additional observations from a re-analysis of the deposited data

How the results depend on the processing

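The 3 member calls were also made by DESeq2, limma-voom, with DESeq2 size factors, without a filter and with a stricter one of a mean of 1 CPM. With 1 library left out the count ranged from 0 (without fl/fl 1 or fl/fl 2) to 3. In the fit with the replicate number as a replicate block, 2 of the 3 calls were made, with adjusted p of 0.0211 for *Igtp*, 0.0468 for *Ifi47* and 0.0730 for *Irgm2*, and it called 417 genes in place of 500. Positive with all libraries in edgeR, the log2 fold change was negative for *Gbp3* (−0.51 and −0.58) and *Gbp5* (−1.43 and −1.13) under limma-voom and the replicate block, and for *Gbp7* (−0.29) under limma-voom. Leaving out 1 library gave −1.99 to 1.38 for *Gbp3*, −2.46 to 0.93 for *Gbp5* and −2.23 to 2.73 for *Gbp7*, negative without Δ/Δ 2. DESeq2 gave no adjusted p for *Gbp3* and *Gbp7*. Of the other inducible GTPase genes, 4 passed by DESeq2, 1 with the further fold limit and 2 to 4 with 1 library left out, against 2. Of the genes of all pathway lists other than the members, 10 passed, beside 3.88% of all tested genes. Of these lists 4 genes passed with the fold limit and 2 to 14 with 1 library left out. The replicate block lost *Irf7* and *Trim21* among others (adjusted p = 0.0508 and 0.0611). Of all genes, 1104 passed by DESeq2, 762 without a filter, 240 with the fold limit and 95 to 1320 with 1 library left out. By the longest annotated transcript in place of all exons, 8 of 10 members had the same rank by level, and *Irgm2* and *Ifi47* changed places. The cause of these changes was not tested. The biological coefficient of variation common to all tested genes was 0.181. It does not describe *Gbp2*, *Gbp3*, *Gbp5* and *Gbp7*, whose SD over the Δ/Δ libraries exceeded their mean (13.3 ± 15.3 CPM for *Gbp2*). With 3 libraries a group, GBP differences smaller than that spread could go undetected, and no detection limit was computed.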
